A study of Mus musculus with 2 samples.

Results

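Exonic peaks away from promoters are stretches of DNase I-accessible chromatin whose centre lay inside an exon of a protein-coding transcript. The centre also lay over 1 kb from every start site of any gene in the basic set of GENCODE M21 transcripts. Replicate 1 held 1273 such peaks and replicate 2 held 1310, against 49224 and 48581 autosomal peaks in all. The comprehensive transcript set, which has more start sites, gave 1025 and 1045. The peaks were chosen by position alone, among peaks of the main list of a library that overlapped the main list of the other by at least 1 bp. These overlapping peaks numbered 39126 and 39129, so that 3.25% and 3.35% of them were exonic. Their centres lay in coding sequence in 749 and 783 cases, in the 3′ untranslated end of a transcript in 478 and 477, and in the 5′ untranslated end in 44 and 49. In 2 and 1 further cases the untranslated end was 5′ in one transcript and 3′ in another.

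The study mapped accessible chromatin by DNase-seq, in which the enzyme DNase I cuts open DNA in nuclei and the cut ends are sequenced. The samples were thymus tissue of adult female B6CASTF1/J mice, a cross between B6 and CAST, at an age of 18 to 20 months. There were 2 libraries in 1 group, biological replicates 1 and 2, with no treatment and no other age, sex or tissue to compare. The labels give them 1 donor record and a biosample record each, without stating that separate animals were used, and their spread may be technical only. With 2 libraries no test between samples was possible: an exact sign permutation test over them cannot give a two-sided p below 0.5. Values are therefore given for replicate 1 and then replicate 2, or as mean ± SD with n = 2. The overlap that defines the peaks was drawn from both libraries, so their agreement at these peaks is in part a product of the rule.

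In most tissues accessible sites gather at promoters, in introns and between genes, and a minority lie in exons. There the same bases encode protein, or form the untranslated ends of a message, and can also be bound by transcription factors. Such a site can be an enhancer, a site of the insulator protein CTCF, or the start of a transcript that the annotation lacks. In the thymus, the organ in which T cells mature, factors of the RUNX, ETS, TCF7 and E protein families act on T cell enhancers.

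The following stretches lie inside coding exons, where a run of bases had fewer cuts than its surroundings. Each is 30 bases at the longest footprint found at the same place in both libraries, written 5′ to 3′ on the coding strand of the gene, from the GRCm38 reference. In Lgals7, Angptl6 and Klf1 the shared footprint was longer, at 35, 32 and 48 bp, so that only a part of it is printed. A footprint is a short run of bases with fewer cuts than its surroundings, as the authors called it. Capitals mark the bases inside a footprint in both libraries, and all 8 stretches were coding along their whole length. The first 5 come from among the 10 strongest coding sites, and the last 3 from among the T cell genes with a coding site.
Lgals7, chr7:28866132-28866161, plus strand: CGCGCGTGCGCTTGGTGGAGGTGGGCGGAG
Angptl6, chr9:20878240-20878269, minus strand: AGGCGAGGGCGGAGCCTGACCTGGGGGCGG
Notch4, chr17:34587578-34587607, plus strand: accACGCCGGGGGGCGGGGCCGCGCCGCgc
Zfp771, chr7:127254096-127254125, plus strand: aaGCCGTACGCATGCGCACACTGTGGGCgg
Klf1, chr8:84903165-84903194, plus strand: CGCCCCCTATGGGCTGCTGTCGGGATACCC
Coro1a, chr7:126701291-126701320, minus strand: GAGTGAGCGGCAGGTGGCGCTGTGGGACAC
Notch1, chr2:26468595-26468624, minus strand: caatcagggcaCCTGTGAGcccacatccga
Nfatc3, chr8:106104067-106104096, plus strand: gttacatCTGCCGTGCAGGTGCACttttat

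Among the 16 consensus motifs searched, the Zfp771 stretch held a match to that of NRF1, a factor of genes for mitochondrial and basic cell functions, inside its footprint. The Notch4 stretch held a match to the motif of SP and KLF factors. The stretches of Coro1a, Notch1 and Nfatc3 each held the E-box CAGGTG, which E proteins and ZEB factors bind, on one strand or the other. Those of Lgals7, Angptl6 and Klf1 held none of the 16 at the footprint. The stretches not printed, of Aes, Crlf2, Zfyve28, Cfap157, Ccdc194, Notch3 and Tcf7, also held none of them there. The coding sites of Zbtb7b and Lck had no footprint shared by the libraries inside the exon. A match is a description of letters in the reference, which is of the B6 strain, and does not show that a factor was bound. Letters of the CAST strain were not examined.

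The strongest coding site lay in Lgals7, the gene of galectin-7, a lectin of stratified epithelia. The deposited signal of its peak, at chr7:28866041-28866240 in the last of 4 exons, was 14.7 in replicate 1 and 16.8 in replicate 2. Angptl6, the gene of a secreted angiopoietin-like protein, followed with 13.7 and 14.98 at chr9:20878201-20878540, inside exon 2. Aes, which encodes a co-repressor of the Groucho family, had 9.34 and 11.8 at chr10:81561121-81561400. These 3 sites were higher in replicate 2, while the median autosomal peak was lower there, at 1.44 against 1.67.

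Notch4, a receptor of the Notch family, had signals of 10.05 and 9.65 at chr17:34587481-34587740 in its last exon of 1130 bp. The zinc finger gene Zfp771 had 9.88 and 8.39 at chr7:127254021-127254260, also in its last exon. Crlf2, a receptor subunit for the cytokine TSLP, had 8.23 and 7.93 at chr5:109557401-109557720. All 3 deposited signals were higher in replicate 1, as the median peak was. Divided by that median, Notch4 had 6.01 and 6.72, Crlf2 4.92 and 5.53, and Zfp771 5.90 and 5.85. Klf1, the gene of an erythroid transcription factor, had 9.45 and 5.91 at chr8:84903081-84903300, and Ccdc194 had 9.04 and 5.96. Zfyve28 had 6.604 and 8.43, and Cfap157, which encodes a protein of the sperm flagellum, had 7.63 and 7.45. In all 10 genes both libraries lay above the upper quartile of coding peaks, which was 2.66 and 2.21. The replicate 1 peak centre lay 1262 bp from the nearest start site in Klf1, 1357 in Angptl6, 1376 in Crlf2 and 1714 in Ccdc194. The distance was 1766 bp in Aes, 1911 in Lgals7, 2196 in Notch4, 2484 in Cfap157, 6569 in Zfp771 and 8910 in Zfyve28. The median distance over all coding peaks was 5806 and 5743 bp.

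The highest signals of any exonic site lay in 3′ untranslated ends. Cers5, the gene of a ceramide synthase, had 32.3 and 34.7 at chr15:99735641-99735920. Lars2, the mitochondrial leucyl-tRNA synthetase, had 38.2 and 16.8 at chr9:123461901-123462100. The Lars2 values differed by more than those of any other site named for its strength. Of the 31-base words of this peak, 62.9% also occurred elsewhere in the reference, in up to 8 copies, so that reads from other places could have been counted there. Over all 1121 sites paired between the libraries, 1028 had no repeated word and 13 had at least 50% of their words repeated.

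Ubqln1, whose protein carries ubiquitylated proteins to the proteasome, had 17.5 and 17.1 at chr13:58177621-58177820. The nonagouti gene, with the symbol a, had 13.6 and 9.01 at chr2:155050721-155050920. Slc16a5, a gene of the monocarboxylate transporter family, had 10.03 and 7.26. A site in the last exon of Lrrc24, which overlaps an exon of Lrrc14, had 7.53 and 8.30 and cannot be given to one gene. Rtn2 had 9.33 and 5.75, and Cacnb1, a calcium channel subunit, had 8.43 and 6.14. In 6 of these 8 sites the deposited signal was higher in replicate 1.

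Of the 5′ untranslated peaks paired between the libraries, Pdcl3, the gene of a phosducin-like chaperone, had the highest mean scaled signal, with deposited signals of 13.5 and 10.1 at chr1:38987641-38987860. Pld3, a lysosomal exonuclease, had 9.48 and 8.91 at chr7:27542721-27542940, in exon 3 of 14. The splicing factor gene Sf3b5 had 7.49 and 9.71, 3077 bp into its only exon of 3841 bp. Acbd4, of the acyl-CoA-binding family, had 7.84 and 6.38, and its peak held a CTCF match. Pop5, a subunit of the RNA-processing enzymes RNase P and MRP, had 7.45 and 6.67, with an NRF1 match.

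**Figure D1:**
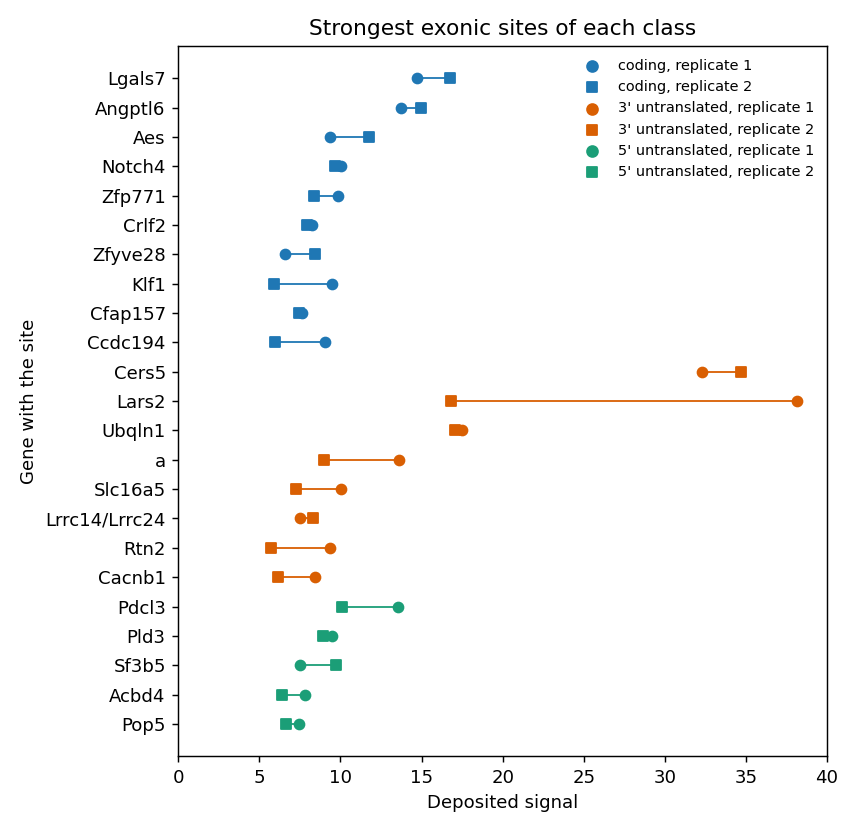
Deposited signal (x axis, no stated unit) of the strongest sites in coding sequence, 3′ ends and 5′ ends, by gene. Circles are replicate 1 and squares replicate 2. Both Cers5 values and the replicate 1 value of Lars2 lie to the right of all others, and the Lars2 values, 38.2 and 16.8, are the farthest apart.

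Nearly all exonic peaks were weaker than these. The median signal of coding peaks was 1.60 and 1.39, that of 3′ ends 1.92 and 1.53, and that of 5′ ends 1.70 and 1.74. Intronic peaks chosen in the same way had 1.65 and 1.37, and promoter peaks 3.26 and 2.83. The ratio of the coding to the intronic median was 0.973 and 1.01, on either side of equality. For 3′ ends the ratio was 1.17 and 1.11, above 1 in both libraries. Among the strongest 10% of shared peaks stood 1.60% and 0.894% of coding peaks, 1.67% and 1.47% of those in 3′ ends, and 19.5% and 19.3% of promoter peaks.

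Of the exonic peaks of replicate 1, 1196 overlapped a single peak of replicate 2 that overlapped no other. In 1121 pairs both peaks were exonic and of the same class, called sites here: 629 coding, 454 in 3′ ends, 37 in 5′ ends and 1 other. Another 54 pairs were not exonic by centre in replicate 2, and 21 changed class. Across the 629 coding sites Spearman's rho between the 2 signals was 0.876, across the 454 of 3′ ends 0.830 and across the 37 of 5′ ends 0.916. Across 8710 intronic pairs it was 0.817. These correlations run over sites of the same 2 libraries, which are not replicates, and carry no p.

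**Figure D2:**
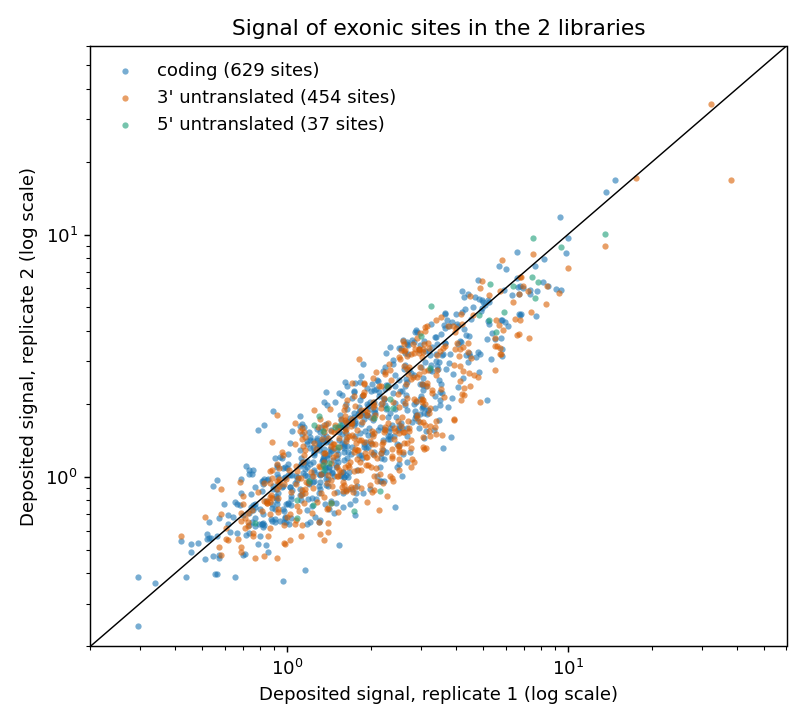
Deposited signal of the 1120 coding, 3′ and 5′ sites in replicate 1 (x axis) and replicate 2 (y axis), both on log scales. The line marks equal values. Points follow the line with more of them below it, and the Lars2 site stands apart at 38.2 and 16.8.

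After each library was divided by its median autosomal peak, 13 coding sites differed by over 2-fold, 9 higher in replicate 1 and 4 in replicate 2. In 3′ ends 17 did, 16 of them higher in replicate 1. The largest difference was in Ctif, whose product acts in translation at the nuclear cap-binding complex, with deposited signals of 2.42 and 0.750. Acpp had 1.54 and 0.522, Tanc2 had 2.13 and 0.731, and Sycp2l, a gene of meiotic chromosome pairing, had 1.16 and 0.411. Mdm4, the gene of a p53 inhibitor, was the one of the 5 that was higher in replicate 2, at 0.895 and 1.87. Its peak had 75.6% of its 31-base words repeated in the reference.

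The difference between the libraries moved with CTCF matches. Coding sites with a CTCF match in both peaks were higher in replicate 1 in 48 of 55 cases, with a median log2 difference of scaled signal of 0.45. Coding sites without a match were higher there in 238 of 571, with a median of -0.09. In 3′ ends the counts were 77 of 85, with a median of 0.54, against 170 of 367, with -0.05. Intronic sites showed the same split, 978 of 1057 against 3014 of 7613, so it was not particular to exons. Of the 5 sites with the largest differences, Ctif and Sycp2l held a CTCF match. Peaks called in 1 library differed likewise: a CTCF match was in 5.38% of the 279 coding peaks of replicate 1 without overlap in replicate 2, and in 1.14% of the 438 in the reverse case. The part of depth, digestion or tissue makeup in this was not tested.

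**Figure D3:**
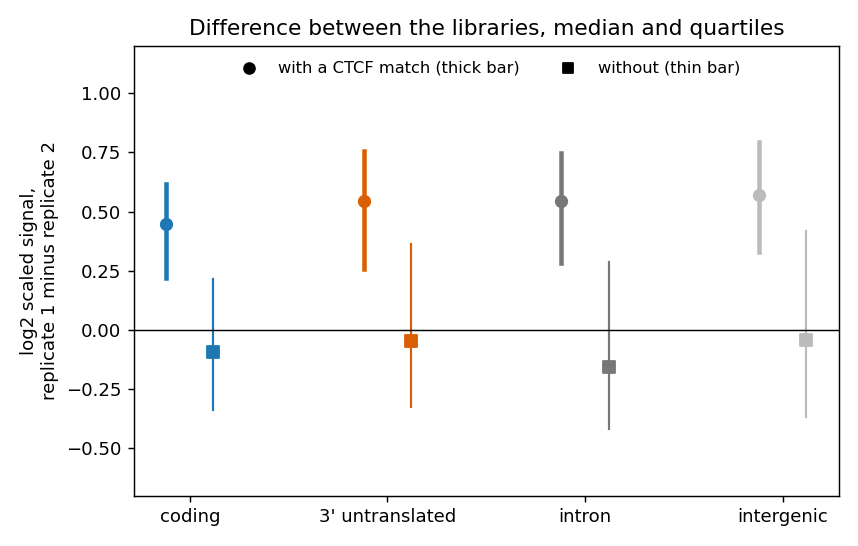
Difference between the libraries in log2 scaled signal (y axis, replicate 1 minus replicate 2) for paired sites in coding sequence, 3′ ends, introns and between genes. Points are medians and bars run from the lower to the upper quartile, thick with a CTCF match and thin without. Medians with a match lie between 0.45 and 0.57, and those without lie between -0.16 and -0.04.

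Coding sequence was denser in accessible sites than introns when all sequence was pooled. Per Mb of coding sequence over 1 kb from start sites there were 26.7 ± 0.840 shared peaks (SD, n = 2), against 10.7 ± 0.0468 in introns and 6.9997 ± 0.00177 between genes. The 3′ ends held 16.3 ± 0.0241 and the 5′ ends 70.3 ± 5.35, the last from 44 and 49 peaks on 0.661 Mb. The ratio of coding to intronic density was 2.43 and 2.55, and that of 3′ ends 1.51 and 1.52. These gaps were larger than the spread between the libraries. Coding sequence and 3′ ends made up 1.25% and 1.28% of the eligible sequence.

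The coding excess held at every distance from start sites and turned around among sequence of equal GC content from 40% upward. Between 1 and 2 kb from a start site the coding to intron ratio was 2.28 and 2.496, and beyond 20 kb it was 2.32 and 2.28. Sequence was then grouped by the GC content of the 200 bp around each base. Where GC was 40 to 50%, coding sequence held 4.73 and 3.68 peaks per Mb and introns 5.95 and 5.82. At 50 to 60% the values were 25.7 and 26.7 against 38.3 and 38.4, and at 60 to 70% they were 94.9 and 103 against 150.4 and 149.9. Above 70% they were 446 and 477 against 677 and 603. Below 40% the order was reversed, at 0.819 and 1.09 against 0.191 and 0.181, but on only 3 and 4 coding peaks. Peaks became denser with GC in both classes, and sequence of 50 to 60% GC made up 12.05 of 28.6 Mb of coding sequence and 145 of 846 Mb of introns.

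The 3′ ends behaved in another way. At 40 to 50% GC they held 8.76 and 8.32 peaks per Mb, 1.47 and 1.43 times the intronic density. At 50 to 60% the ratio was 1.17 and 1.16, and at 60 to 70% it was 0.835 and 0.871. By distance the ratio rose from 0.762 and 0.773 at 1 to 2 kb from a start site to 1.79 and 1.82 beyond 20 kb. In 5′ ends the ratio to introns stayed above 2 from 40 to 70% GC, on 4 to 22 peaks a class.

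**Figure D4:**
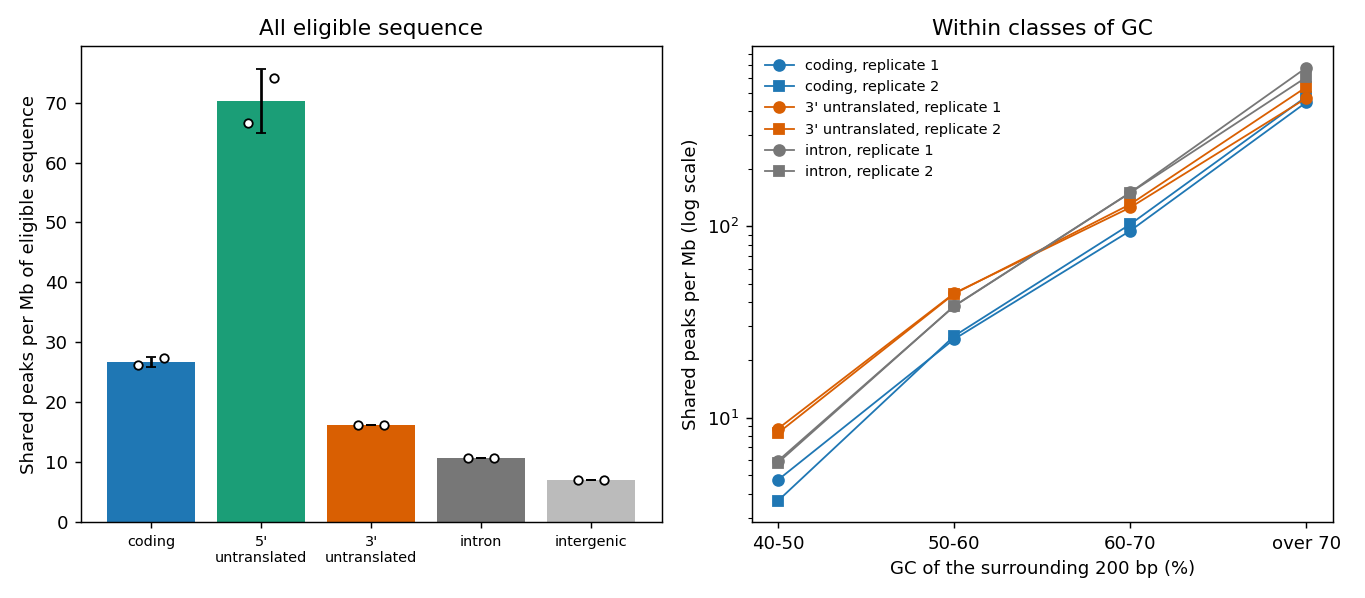
Left, shared peaks per Mb of eligible sequence by class, with bars for the mean, error bars for the SD and points for the 2 libraries. Right, the same density on a log scale within classes of GC content of the surrounding 200 bp. Coding sequence lies above introns on the left, at 26.7 against 10.7, and below them on the right in each of the 4 GC classes drawn, from 40% upward.

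The sequence of the coding peaks differed from that of other peaks away from promoters. Their median GC content was 60% in both libraries, against 55.0% and 55.3% in 3′ ends and 53.6% and 53.8% in introns. CpG pairs, the sites of DNA methylation, occurred at 0.485 and 0.486 of the number that the base content predicts, against 0.247 and 0.248 in introns. Peaks with a CpG ratio of at least 0.6 and GC of at least 50%, called CpG-rich here, made up 37.2% and 34.6% of coding peaks. The share was 8.37% and 10.1% in 3′ ends, 6.61% and 6.55% in introns and 71.9% and 71.5% at promoters.

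The CpG-rich coding peaks lay closer to start sites than the rest. Their median distance was 3514 and 3452 bp, against 8020 and 7868 bp for other coding peaks. Their median signal was 1.79 and 1.48, against 1.54 and 1.35. A match to the SP and KLF motif occurred in 19.7% and 21.4% of them and in 6.596% and 7.03% of the others. The RUNX motif went the other way, with 1.79% and 1.48% against 6.81% and 7.81%.

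Which annotation defines a start site mattered for coding peaks. The rule was applied with the basic set of GENCODE M21 transcripts. With the start sites of the comprehensive set, which adds partial and less certain transcripts, 207 of the 749 and 218 of the 783 coding peaks lay within 1 kb of a start. In 3′ ends 33 of 478 and 33 of 477 did, and in 5′ ends 17 of 44 and 24 of 49. The CpG-rich coding peaks were not more often this near to a start, at 27.6% and 25.5%, than the other coding peaks, at 27.7% and 29.1%. In 3′ ends the CpG-rich peaks were so more often, at 20% and 16.7% against 5.71% and 5.83%. The same held in 5′ ends, at 50% and 66.7% against 29.2% and 32%, on few peaks. Applied in full, with its own exons, the comprehensive set gave 1025 and 1045 exonic peaks. Of the sites printed above as sequences, those of Notch4, Coro1a and Notch1 lay within 1 kb of a start or outside its exons, and so did the strongest sites in Aes, Cfap157, Pdcl3, Pld3, Acbd4 and Pop5. Among the T cell sites given below, those of Cd3d and Lck were lost in the same way. Of the 72 sites named here, 54 stayed exonic under the comprehensive set.

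The distance of 1 kb did not divide strong from weak peaks. Exonic peaks with centres 1000 to 1250 bp from a start had median signals of 1.42 and 1.38 (88 and 95 peaks). Those at 750 to 1000 bp, which the rule left out, had 1.51 and 1.42 (149 and 173 peaks).

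Within genes, coding sites were less often in internal exons than coding sequence is. Of the 622 coding sites that lay in the longest coding transcript of their gene, 66.9% were in internal exons, which hold 79.2% of eligible coding bases. Last exons held 27.8% of sites and 18.7% of bases, and first exons 2.89% of sites and 0.917% of bases. Exons under 100 bp held 5.79% of sites and 12.1% of bases, and exons of 300 to under 1000 bp held 20.3% and 12.5%. When the coding sequence of each gene was cut into 4 equal lengths, the one nearest the start held 17.8% of sites and 19.6% of bases, and the one nearest the end 29.6% and 27.4%.

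Coding peaks often reached beyond their exon. In 59.5% of the 629 coding sites the peak crossed an exon border, against 4.41% of the 454 in 3′ ends. A median of 89.1% of the bases of a coding peak lay in exons. The signal of such a peak therefore includes intronic bases, as in Aes, where 35.0% of the peak was exonic. Coding peaks were wider than 300 bp in 15.8% and 18.9% of cases, and intronic peaks in 6.21% and 7.34%. They also had more neighbours, with another main-list peak within 1000 bp in 46.9% and 47.5%, against 29.4% and 30.96% in introns. Another annotated gene overlapped 62 of the 629 coding sites and 50 of the 454 in 3′ ends.

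Footprints were present in 89.1% and 91.8% of coding peaks, 95.6% and 96.0% of those in 3′ ends and 94.9% and 96.6% of intronic peaks. They covered 17.8% and 18.1% of coding peak bases, against 23.0% and 22.6% in 3′ ends and 20.4% in both libraries in introns. The coding to intronic ratio was 0.872 and 0.886, a gap larger than the spread between the libraries. It turned to 1.02 when only the stronger 50% of each peak list was used. Counted per peak, footprints numbered 3.12 and 3.32 in coding peaks and 2.89 and 3.02 in intronic ones. In the central 150 bp they numbered 2.41 and 2.45 against 2.47 and 2.49. The part of peak width in these values was not tested. At equal distance from the peak centre, footprints took 17.3% and 19.1% of exonic and 17.3% and 21.7% of flanking bases of coding peaks at 25 to 49 bp. They took 16.5% and 17.0% of exonic and 22.3% and 19.8% of flanking bases at 50 to 74 bp. At 75 to 99 bp the shares overlapped, with 14.7% and 15.1% of exonic and 13.0% and 18.2% of flanking bases. Within 25 bp of the centre the exonic share was 30.5% and 29.6% and the flanking share 41.4% and 35.1%, the last from only 1636 and 1572 bases.

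The motif of CTCF, which anchors chromatin loops, was more common in 3′ ends than in coding sequence or introns. It was found in 18.2% of 3′ end peaks in both libraries (87 of 478 and 87 of 477), with an exact 95% binomial interval of 14.8 to 21.96% in replicate 1. In coding peaks it was in 8.41% and 7.79%, with an interval of 6.52 to 10.6% in replicate 1, in introns in 12.1% and 11.9%, and at promoters in 2.00% and 1.95%. Between genes it was in 14.9% and 14.6%, near the lower end of the 3′ end interval. The intervals cover counting error only. In the central 100 bp of each peak, which makes the length equal, the shares were 17.8% and 16.6% in 3′ ends. They were 7.74% and 6.64% in coding sequence, 11.7% and 11.0% in introns and 14.4% and 13.4% between genes. Of the CTCF matches in coding peaks, 98.4% in both libraries touched a footprint. The share was alike in introns, at 99.2% and 98.1%, and in 3′ ends, at 100% and 98.9%. The motif written backwards had no match in 3′ ends, coding sequence, introns or between genes.

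The E-box CAGCTG was found in 30.8% and 31.9% of coding peaks, 22.7% and 23.5% of intronic peaks and 19.7% and 21.8% of those in 3′ ends. In the central 100 bp the gap was smaller, at 15.2% and 16.6% against 13.2% and 13.5% in introns. The E-box CAGGTG was in 36.8% and 40.1% of coding and 30.8% and 31.2% of intronic peaks, and in the central 100 bp in 21.5% and 22.7% against 20.5% and 20.3%. Of CAGCTG matches 30.1% and 23.6% touched a footprint in coding peaks, 29.6% and 31.1% in introns and 33.9% and 35.2% in 3′ ends. So both E-box words were more common over whole coding peaks, which are also wider, and less distinct at their centres. In 59.5% of coding sites the peak crossed an exon border, and matches at such borders were not counted apart.

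Motifs of several factors of blood cell development were rarer in coding than in intronic peaks. RUNX, searched as TGTGGTT, was in 4.94% and 5.62% of coding peaks and 9.62% and 10.02% of intronic ones. In 3′ ends it was in 8.37% and 8.39%. Written backwards it was in 2.14% and 2.94% of coding and 2.49% and 2.38% of intronic peaks. AP-1, as TGANTCA, was in 2.27% and 2.30% against 6.03% and 6.30%, and GATA, as AGATAA, in 3.07% and 3.19% against 6.33% and 6.21%. The coding share of AP-1 was no higher than that of its letters backwards, 2.67% and 3.32%. ETS, as CCGGAAG, was more common in coding than in intronic peaks, with 6.54% and 6.26% against 3.57% and 3.71%. Yet backwards it was in 5.61% and 6.64% of coding and 3.78% and 4.03% of intronic peaks. TCF7 and LEF1, as CTTTGAA, were matched in 3.47% and 3.83% against 4.74% and 4.82%. Coding peaks had a median GC content of 60%, against 53.6% and 53.8% in introns, and its part in these shares was not tested.

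The other motifs searched were GGGCGGG (SP and KLF), GCGCATGCG (NRF1), TGACGTCA (CRE), TTGGGAA (Ikaros), ATTGGCT (NF-Y), AAGATGGCG (YY1), TGGAAAA (NFAT) and GAGGAAGT (PU.1). All were searched on both strands, and the motif of CTCF was a longer consensus with open positions. SP and KLF reached 11.5% and 12.01% of coding peaks and 8.22% and 8.00% of intronic ones, against 42.7% and 42.5% of promoters. NRF1 was in 1.202% and 0.766% of coding peaks, against 0.329% and 0.309% in introns and 2.75% and 2.80% at promoters. PU.1 was in 3.34% and 3.45% of coding peaks and backwards in 3.60% and 3.45%.

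**Figure D5:**
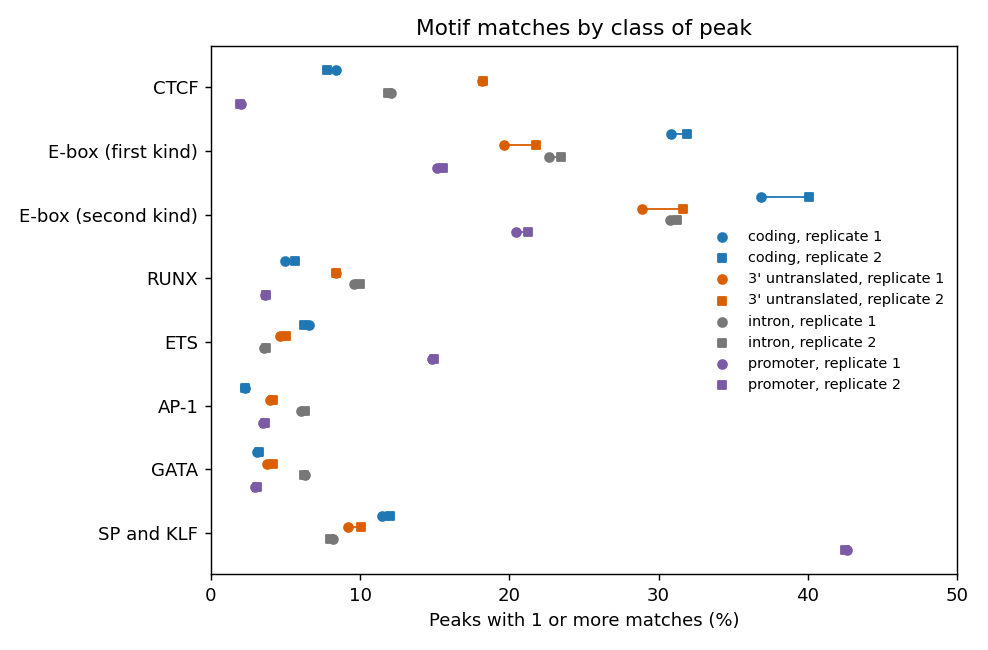
Share of shared peaks with 1 or more matches to a motif (x axis, %), by class. Circles are replicate 1 and squares replicate 2; the first E-box is CAGCTG and the second CAGGTG. The 3′ ends lead for CTCF at 18.2%, coding peaks for both E-boxes, and promoters for ETS and for SP and KLF.

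The 1121 sites lay in 976 of the 20780 autosomal protein-coding genes, which is 4.7% of them. Of these genes 840 had 1 site, 118 had 2, 17 had 3 and 1 had 4. The promoter was accessible in both libraries in 687 of the 976 genes (70.4%), against 54.6% of all autosomal protein-coding genes and 53.8% of the 19804 without a site. The share was 68.5% of the 569 genes with a coding site, 74.5% of the 423 with a 3′ site and 56.8% of the 37 with a 5′ site. Genes with a site also had more exonic sequence eligible for one, with a median of 3341 bp against 2249 bp over all genes. The part of length in these shares was not tested.

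Ccdc162 was the gene with 4 sites, all in coding exons, with deposited signals from 1.35 to 3.50 in replicate 1 and from 1.30 to 2.36 in replicate 2. Crlf2 had 3 in the neighbouring exons 2, 3 and 4, with 8.23, 3.41 and 1.45 in replicate 1 and 7.93, 3.55 and 1.29 in replicate 2. The signals fell with distance from the start, and the order was equal in both libraries. Akap13, which encodes an anchoring protein of protein kinase A, had 3 coding sites, 2 of them in its exon 7 of 3064 bp, the stronger at 3.63 and 4.23. Camkk2, a calcium-dependent kinase gene, had 3 in its last exon, and Capn11, a calpain gene, had 3. The last 4 were taken in alphabetical order among the 17 genes with 3 sites.

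Of 58 T cell genes, 10 had a site (17.2%, against 4.7% of all), with 13 sites in all. An accessible promoter in both libraries was found for 53 of them, against 54.6% of all autosomal protein-coding genes. Like the other gene lists, this one was chosen with earlier results of these data known. Its median eligible exonic length was 2756.5 bp, against 2249 bp over all genes. The part of the choice and of length in the share with a site was not tested. Coro1a, an actin regulator that T cells need to survive and leave the thymus, had the strongest site, 8.14 and 6.39 in coding exon 6 of 11. Cd3d, a subunit of the T cell receptor complex, had 5.81 and 7.85 in its 3′ end at chr9:44986581-44986780, with an ETS match. Notch1, the receptor that commits thymic progenitors to the T lineage, had 4.06 and 4.18 in coding exon 25 of 34. Notch3, a related receptor, had 3.49 and 1.71 in exon 24 of 33. Under the comprehensive annotation the sites of Coro1a, Cd3d, Notch1 and Lck were no longer exonic peaks away from start sites.

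Nfatc3, a calcium-responsive transcription factor gene, had 2.39 and 2.92 in coding exon 8 of 10. Zbtb7b, which directs thymocytes to the CD4 lineage, had a site of each class. Its 3′ site had 2.16 and 2.37 and held a CTCF match, its 5′ site had 2.05 and 1.74, and its coding site had 1.18 and 1.41. S1pr1, the receptor that guides T cells out of the thymus, had 1.41 and 1.14 in its 5′ end. Lck, the kinase that starts T cell receptor signalling, had 1.15 and 1.14, and Tcf7, a factor of early T cell development, had 1.16 and 1.02. The sites of S1pr1, Lck and Tcf7 and the coding site of Zbtb7b thus lay below the median autosomal peak of their library. In bulk tissue a site open in fewer cells and one less open in each cell cannot be told apart.

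Genes of chromatin regulators had a site in 6 of 33 cases (18.2%), among long genes whose median eligible exonic length was 8109 bp. Kdm6b, a histone H3 lysine demethylase, had 2.998 and 3.81 in its 5′ end. Kmt2a and Kmt2d, histone H3 lysine methyltransferases, had 2.51 and 1.64 in a coding exon and 1.84 and 1.88 in the 3′ end. Of 14 housekeeping genes, all with an accessible promoter, 14 fibroblast and matrix genes and 12 skeletal muscle genes, 0 had a site. In lists of this size a count of 0 is near the 4.7% of all genes.

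Small lists of other cell types had shares near that of T cell genes in some cases: 2 of 16 B cell genes (12.5%), 3 of 19 myeloid and dendritic genes (15.8%) and 2 of 13 endothelial genes (15.4%). The share was 1 of 11 for neurons (9.09%), 1 of 12 for hepatocytes (8.33%), 1 of 20 for thymic epithelium (5%) and 3 of 65 for developmental homeobox and forkhead genes (4.62%). Of the B cell genes, Spib, an ETS factor of B and plasmacytoid dendritic cells, had 3.20 and 3.32 at its stronger site, and Bank1, which encodes a B cell scaffold protein, had 0.698 and 0.476. Of the myeloid and dendritic genes, Flt3, a receptor of early blood progenitors, had 2.90 and 3.97, Cebpb had 1.89 and 1.40, and Spi1, the gene of PU.1, had 1.66 and 1.04. Foxn1, the master factor of thymic epithelium, was the one epithelial gene, with 1.43 and 1.14 in its 3′ end. Vwf, the endothelial von Willebrand factor, had 3.07 and 1.44, and Kdr, an endothelial growth factor receptor, had 0.859 and 0.568. Rbfox3, a neuronal splicing factor, had 3.62 and 2.13, and Apoa1, an apolipoprotein of liver, had 1.199 and 0.959. Of the developmental genes, Nkx2-2 had 2.67 and 1.15, Dlx1 had 1.55 and 1.64, and Lhx2 had 1.21 and 1.13.

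The promoters of defining cell type markers served as a check of the tissue label. Of 12 T cell and thymocyte markers, 11 had a promoter peak in both libraries, and 3 of 7 markers of thymic epithelium did. Over all autosomal protein-coding genes 54.6% had one, so the thymic epithelial markers were not above that share. The count was 1 of 6 for B cells, 0 of 5 for myeloid cells and 0 of 4 for hepatocytes. Apoa1, one of the 4 hepatocyte markers, thus had a coding site without a promoter peak in both libraries.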

How the data were processed

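DNase-seq of aged mouse thymus gave 2 libraries in 1 group, with replicate numbers from the labels. Per the file notes, the peak lists, footprints and lists of base runs were made per library on mm10, without pooling; the name of the aligner or peak caller, and any threshold, was not given in the sources used here. Each peak has 1 deposited signal value, whose scale is not stated, and sequencing depth is unknown. The authors also deposited q-values for runs of bases, at most 0.05, which only described peaks here. Every footprint has the constant 0.01, and footprints were used by position. Of the pair of peak lists per library, the one with fewer rows was the main list.

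Peaks on the 19 autosomes were placed by their centre on GENCODE M21 basic transcripts and the GRCm38 reference, on which 300 of 300 transcripts tested were rebuilt identically. Intronic, intergenic and promoter peaks were taken with the same overlap. Scaled signal is the signal divided by the median autosomal main-list peak of the library. Repeated 31-base words were counted on chromosomes, unplaced contigs and the mitochondrial genome. The scripts used Python 3.11.15, pandas 2.3.3, numpy 2.4.6 and scipy 1.17.1, and their overlap, placement, word and motif steps were tested on simulated data.

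The peaks and the gene and motif lists were chosen with earlier results of these data known. Named by rule were the strongest 10 coding, 8 3′ and 5 5′ sites by mean scaled signal, the 5 genes with most sites, T cell genes with a site, up to 3 genes of each other list, and the 5 sites with the largest difference in scaled log2 signal. Not every result that the rule names is reported here. Alternatives covered the peak list, overlap, distance, annotation, placement, strength and each library alone.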

Additional observations from a re-analysis of the deposited data

Results flagged for a closer look

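The longer peak list of each library held exonic peaks that the comparisons did not use. Under the same rule, 689 peaks of replicate 1 and 798 of replicate 2 were found in both longer lists and overlapped no main-list peak of their own library. These are peaks in data outside the main measurement, and there were no control samples to set them against. Their median signal was 0.653 and 0.574, below the medians of the main-list classes.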

How the results depend on the processing

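Each library alone, with 1273 and 1310 exonic peaks, gave density and footprint ratios to introns on the same side of equality as their mean. The ratio of coding to intronic median signal, 0.973 and 1.01, lay on either side of it. With 2 libraries each value lies within the SD of their mean whatever the data, so that closeness is no check. With the longer peak list the count was 2289, 61.8% of the peaks were coding, coding density was 49.4 per Mb, scaled coding signal 1.02, coding GC 59.3%, the CTCF share of 3′ ends 14.5%, footprints per coding peak 2.61 and genes per library 1823. The stronger 50% of peaks gave 557.5, 56.8%, 11.1, 0.854, 60.9%, 15.6%, 4.36 and 497 in that order, and moved the ratio of footprint bases in coding to intronic peaks from 0.879 to 1.02. A reciprocal overlap of 50% gave a coding share of 57.7%, density 21.6, signal 1.08, GC 59.7%, CTCF 19.1% and 3.48 footprints. A distance of 500 bp gave 62.1%, 35.4, 0.938, 61.4%, 17.4% and 2.92, and 2000 bp gave a coding share of 57.3%, density 22.8, GC 59.4% and CTCF 19.3%. Start sites of protein-coding genes only gave density 28.2, signal 0.972, GC 60.2% and CTCF 17.6%. Placement by 50% of the bases gave a coding share of 57.8%, density 25.1, GC 60.2% and CTCF 18.2%, and coding in every transcript gave a share of 57.7%. The comprehensive annotation, chosen after seeing the data, gave 54.2%, density 23.4, signal 0.945, GC 59.7% and CTCF 19.0%. CTCF was in 17.2% of the central 100 bp and in 0% when written backwards, and the central 150 bp of coding peaks held 2.43 footprints.

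The coding to intronic density ratio stayed between 2.31 and 2.83 and that of 3′ ends between 1.36 and 1.81 under the settings run, none of which sets GC equal. Of the 72 named sites, 55 stayed exonic at 2000 bp and 45 among the stronger 50% of peaks. Depth is unknown, so its limits could not be given. No paired analysis was possible because both libraries belong to 1 group.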
